A study of Mus musculus with 2 samples.

Results

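Extracellular proteases and their inhibitors were compared between 2 mouse neural stem cell libraries, sh1, in which Ccdc25 was knocked down, and psicor, the control. The set was defined by gene name, and it was chosen with earlier results of these data known. It takes protein-coding rows of the gene count table whose symbol begins with Mmp or Adam and a digit, or with Timp, Adamts or Serpin. The set leaves out Serpina3n and includes Plat, Plau and Plaur. It holds 72 of the 19595 genes in the table, of which 15095 are protein-coding: 13 matrix metalloproteinases (Mmp), 4 tissue inhibitors of metalloproteinases (Timp), 16 Adam genes, 24 Adamts and Adamts-like genes, 12 serpins and 3 genes of the plasminogen activator system. GENCODE M21 lists 146 protein-coding symbols of these names, and those without a row were not analysed here.

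The cells were brain neural stem cells from ICR mice at embryonic day 13, and total RNA was sequenced. The sh1 library carries the genotype label KO and the psicor library the label WT, and neither label is explained further. The design text speaks of triplicates, while the table gives 1 column of counts for each group, so each group is 1 library. Without replicates, the spread between cultures is unknown, and no difference here was put to a test. How the knockdown was delivered, how long cells were cultured and whether a column is a pool are not given in the labels.

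The sh1 library held 16058407 counts in genes and the psicor library 16549682. Levels are given as CPM, counts scaled to library size with TMM factors computed over the whole table, and every ratio is sh1 over psicor with an exact 95% interval that covers counting error only. Ccdc25, the targeted gene, had 411 counts in sh1 and 553 in psicor, or 26.1 and 32.8 CPM, a ratio of 0.794 (0.697 to 0.904). The library labelled KO thus still held most of the psicor level of the targeted transcript. In bulk RNA, fewer cells of a type and less RNA per cell cannot be told apart.

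Extracellular proteases cut matrix proteins, cell-surface receptors and secreted ligands, and are held in check by inhibitors in the same space. Mmps are zinc proteases made as inactive precursors; some are secreted, while the membrane-type Mmps are anchored at the cell surface, and Timps block them by binding the active site. Adams are membrane proteins, several of which shed ectodomains, among them those of Notch receptors and growth factor precursors, and Adamts enzymes are their secreted relatives, which cut proteoglycans such as aggrecan, versican and brevican or trim procollagens. Plat (tissue-type plasminogen activator, tPA) and Plau (urokinase) are serine proteases that turn plasminogen into plasmin, and serpins trap serine proteases by a suicide mechanism. In the developing brain, tPA has been linked to neuronal migration and Adam10 to Notch signalling. Not every member acts as its family name implies: Adam11, Adam22 and Adam23 lack protease activity, Serpinh1 is a collagen chaperone of the endoplasmic reticulum, and most clade B serpins work inside cells.

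Of the 72 genes, 45 had a promoter in the RefSeq set (build GRCm38.p6). Upstream stretches of 150 bases are shown for the metalloproteinase with the highest length-scaled level (Mmp15), for 4 genes at least 2-fold apart between the libraries (Timp3, Adamts14, Adam19, Serpini1), and for 2 genes low in both libraries that hold the letters of the AP-1 motif (Mmp3, Plaur). Each is written 5′ to 3′ on the strand of the gene and ends before the gene start, with matches on either strand to the AP-1 letters TGANTCA, the GC box GGGCGG or the TATA box TATAAA in capitals.
Mmp15, chr8:95352118-95352267, plus strand: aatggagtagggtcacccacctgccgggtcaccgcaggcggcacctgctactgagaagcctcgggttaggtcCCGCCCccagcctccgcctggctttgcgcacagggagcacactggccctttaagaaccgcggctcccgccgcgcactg
Timp3, chr10:86300222-86300371, plus strand: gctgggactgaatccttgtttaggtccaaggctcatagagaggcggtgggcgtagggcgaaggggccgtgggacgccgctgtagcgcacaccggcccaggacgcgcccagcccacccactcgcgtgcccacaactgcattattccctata
Adamts14, chr10:61273439-61273588, minus strand: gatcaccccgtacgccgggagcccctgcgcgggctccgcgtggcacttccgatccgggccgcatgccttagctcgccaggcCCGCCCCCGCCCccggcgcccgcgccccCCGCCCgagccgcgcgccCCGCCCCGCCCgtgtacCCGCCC
Adam19, chr11:46055834-46055983, plus strand: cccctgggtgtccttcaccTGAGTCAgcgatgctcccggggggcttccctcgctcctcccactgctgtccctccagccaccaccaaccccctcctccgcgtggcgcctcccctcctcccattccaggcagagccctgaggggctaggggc
Serpini1, chr3:75557343-75557492, plus strand: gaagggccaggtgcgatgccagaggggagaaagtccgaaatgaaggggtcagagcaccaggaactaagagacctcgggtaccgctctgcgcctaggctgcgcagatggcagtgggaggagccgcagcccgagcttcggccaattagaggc
Mmp3, chr9:7445672-7445821, plus strand: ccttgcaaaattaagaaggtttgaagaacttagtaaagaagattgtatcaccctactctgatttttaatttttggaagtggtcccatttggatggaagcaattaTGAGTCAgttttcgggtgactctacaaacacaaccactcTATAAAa
Plaur, chr7:24462333-24462482, plus strand: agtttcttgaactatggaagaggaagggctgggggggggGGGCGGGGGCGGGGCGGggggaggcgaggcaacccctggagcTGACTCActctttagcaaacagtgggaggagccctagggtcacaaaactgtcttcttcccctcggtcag

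The stretch of Adamts14 held 6 GC box matches, that of Plaur 3 and that of Mmp15 1, some of them adjoining or overlapping. Those of Timp3 and Serpini1 held no match to any of the motifs. The Timp3 stretch ends 40 bases before the RefSeq start, and the part left out holds a GC box 15 bases before that start. AP-1 letters stood in the stretches of Adam19, Mmp3 and Plaur. Over the full 250 bases before the RefSeq start, AP-1 letters were found in 5 of 45 member promoters (11.1%), against 6.75% of all 32851 RefSeq promoters. The GC box was found in 28 of 45 (62.2%), against 32.7% of all promoters, and the TATA letters in 3 of 45 (6.67%), against 12.4%. The 8-base cAMP response element TGACGTCA was found in 0 of 45 member promoters, against 1.55% of all. Each member entered with 1 promoter, the one starting nearest its gene start, while the share of all promoters was taken without such a choice. The sets compared are therefore unlike, and the differences between them were not tested. Of the 45 member promoters, 38 start within 100 bases of the gene start given with the counts. The matches describe letters in a window and not occupied sites.

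Of the proteases and inhibitors with a measurable level, 41 lay within 2-fold of their psicor level in sh1, among them all 9 with at least 100 CPM. The minimum for counting genes was an average of 1 CPM across the pair of libraries, and 54 of the 72 genes reached it. Of these, 6 were at least 2-fold higher in sh1 (Adamts16, Mmp11, Serping1, Adamts5, Adamtsl5, Timp3), 7 were at least 2-fold lower (Serpinf1, Adamts3, Adamts15, Adamtsl2, Serpini1, Adam19, Adamts14) and 41 lay within 2-fold. Among the 12721 protein-coding genes that reached it, 7.02% were at least 2-fold higher and 7.9% at least 2-fold lower, while the members' shares were 11.1% and 12.96%. Over all 14158 genes past the minimum, of any biotype, 7.69% were at least 2-fold higher and 7.9% lower. The median log2 fold was -0.09 for the 54 genes and -0.01 for all protein-coding genes, and the median absolute log2 fold was 0.48 and 0.35.

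The share of genes beyond 2-fold depended on the level. In the class of 1 to 10 CPM, 5 of 25 members were at least 2-fold higher and 4 lower, 9 in all, against 14.5%, 18.3% and 32.8% of all protein-coding genes of that class. Between 10 and 100 CPM, 1 of 20 members was higher and 3 were lower, 4 in all, against 4.87%, 5.59% and 10.5%. At 100 CPM or more 0 of 9 members were beyond 2-fold, against 4.6% higher, 2.39% lower and 6.99% in either direction. In each class the members' counts are small. Counting intervals lay wholly above 1 for 13 members and wholly below 1 for 22. Since the same held for 33.7% and 35.2% of all protein-coding genes, such an interval does not set a gene apart.

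**Figure D1:**
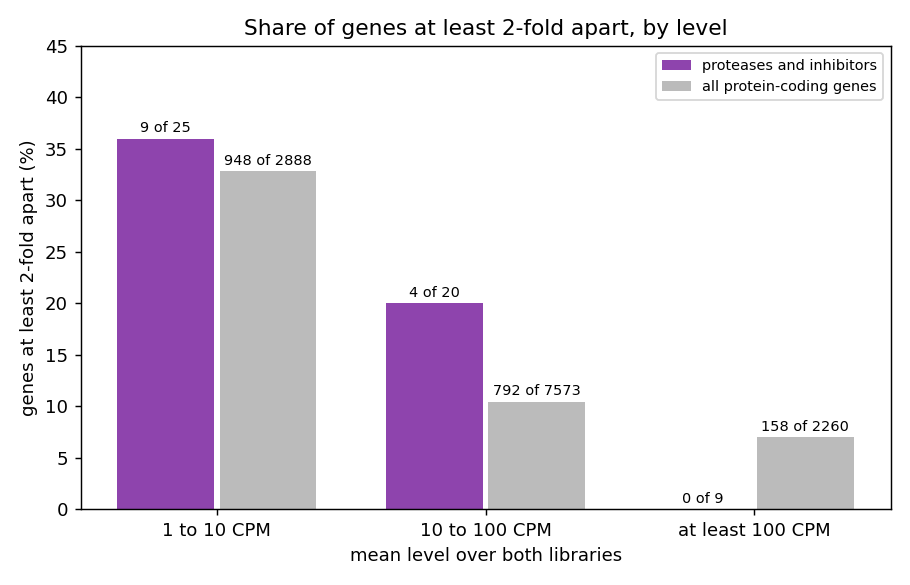
Share of genes at least 2-fold apart between sh1 and psicor (vertical axis, %), for proteases and inhibitors (purple) and all protein-coding genes (grey), in 3 classes of mean CPM; the number of genes stands over each bar. The members' share was highest at 36% in the lowest class and was 0 of 9 genes in the highest.

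**Figure D2:**
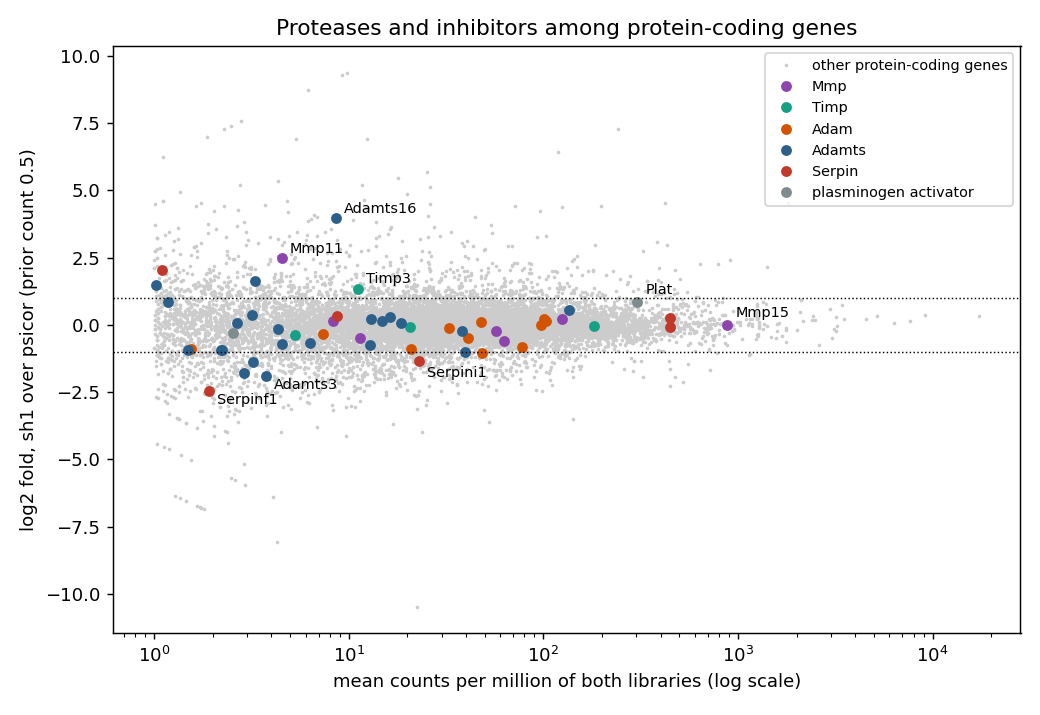
Mean CPM of both libraries (horizontal, log scale) against log2 fold of sh1 over psicor for protein-coding genes past the minimum (grey) and for 53 proteases and inhibitors (coloured by family); dotted lines mark 2-fold. Mmp15 and Plat lie between the lines at high level, and Adamts16 is the member furthest above them.

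Near the 2-fold limit, Timp3 stood just inside it on the higher side with a ratio of 2.54 and Adamtsl4 just outside it with 1.83. On the lower side, Adamts14 stood just inside with 0.497 and Adamtsl1 just outside with 0.513. The authors' deposited table marks 20 of the 72 genes as significant, against 3665 of all 19595 genes. The 20 include the 13 beyond 2-fold. This is no separate evidence, because the mark rests on the same counts and the smallest absolute log2 fold among marked genes is 1. The authors' adjusted p-values lie below the unadjusted ones for 11417 genes and were not used here.

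Markers of several cell types also differed between the libraries. Neuronal markers summed to 1160 CPM in sh1 and 2698 CPM in psicor, with 7 of 8 at least 2-fold lower. Astrocyte markers summed to 5197 CPM in sh1 and 614 CPM in psicor, with 5 of 8 at least 2-fold higher. Apoe alone held 3484 CPM of the astrocyte sum in sh1 and 151 CPM in psicor. Markers of the oligodendrocyte lineage summed to 4709 CPM in sh1 and 2924 CPM in psicor, with 6 of 8 at least 2-fold higher. Most of this sum was Olig1 and Olig2, which lay within 2-fold. Olig1 had 2432 CPM in sh1 and 1751 CPM in psicor, and Olig2 1401 and 1087 CPM. Markers of the labelled cell type, neural stem cells, summed to 8510 CPM in sh1 and 6550 CPM in psicor, with all 8 above a ratio of 1, 2 of them at least 2-fold higher, and a median log2 fold of 0.74.
Markers of fibroblasts and mesenchyme summed to 46.2 CPM in sh1 and 334 CPM in psicor, of which Acta2 alone held 22.8 and 261 CPM. Of 9 listed, 7 passed the minimum, and all of these but Pdgfrb, which was higher, were at least 2-fold lower. Lum was at 0 in sh1. Markers of microglia and macrophages summed to 12.05 CPM in sh1 and 37.0 CPM in psicor. Of these 8, 3 passed the minimum, and Csf1r, Cx3cr1 and Ptprc were at 0 in sh1. Endothelial markers summed to 2.54 CPM in sh1 and 4.93 CPM in psicor, 5 of the 7 genes of the list had a row, 2 passed the minimum, and Cdh5 was at 0 in sh1. Choroid plexus and ependymal markers summed to 153 CPM in sh1 and 91.1 CPM in psicor, most of it Foxj1, and the choroid plexus marker Ttr had 1 count in sh1 and 8 in psicor. The part of these cell types in any difference below was not tested.

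**Figure D3:**
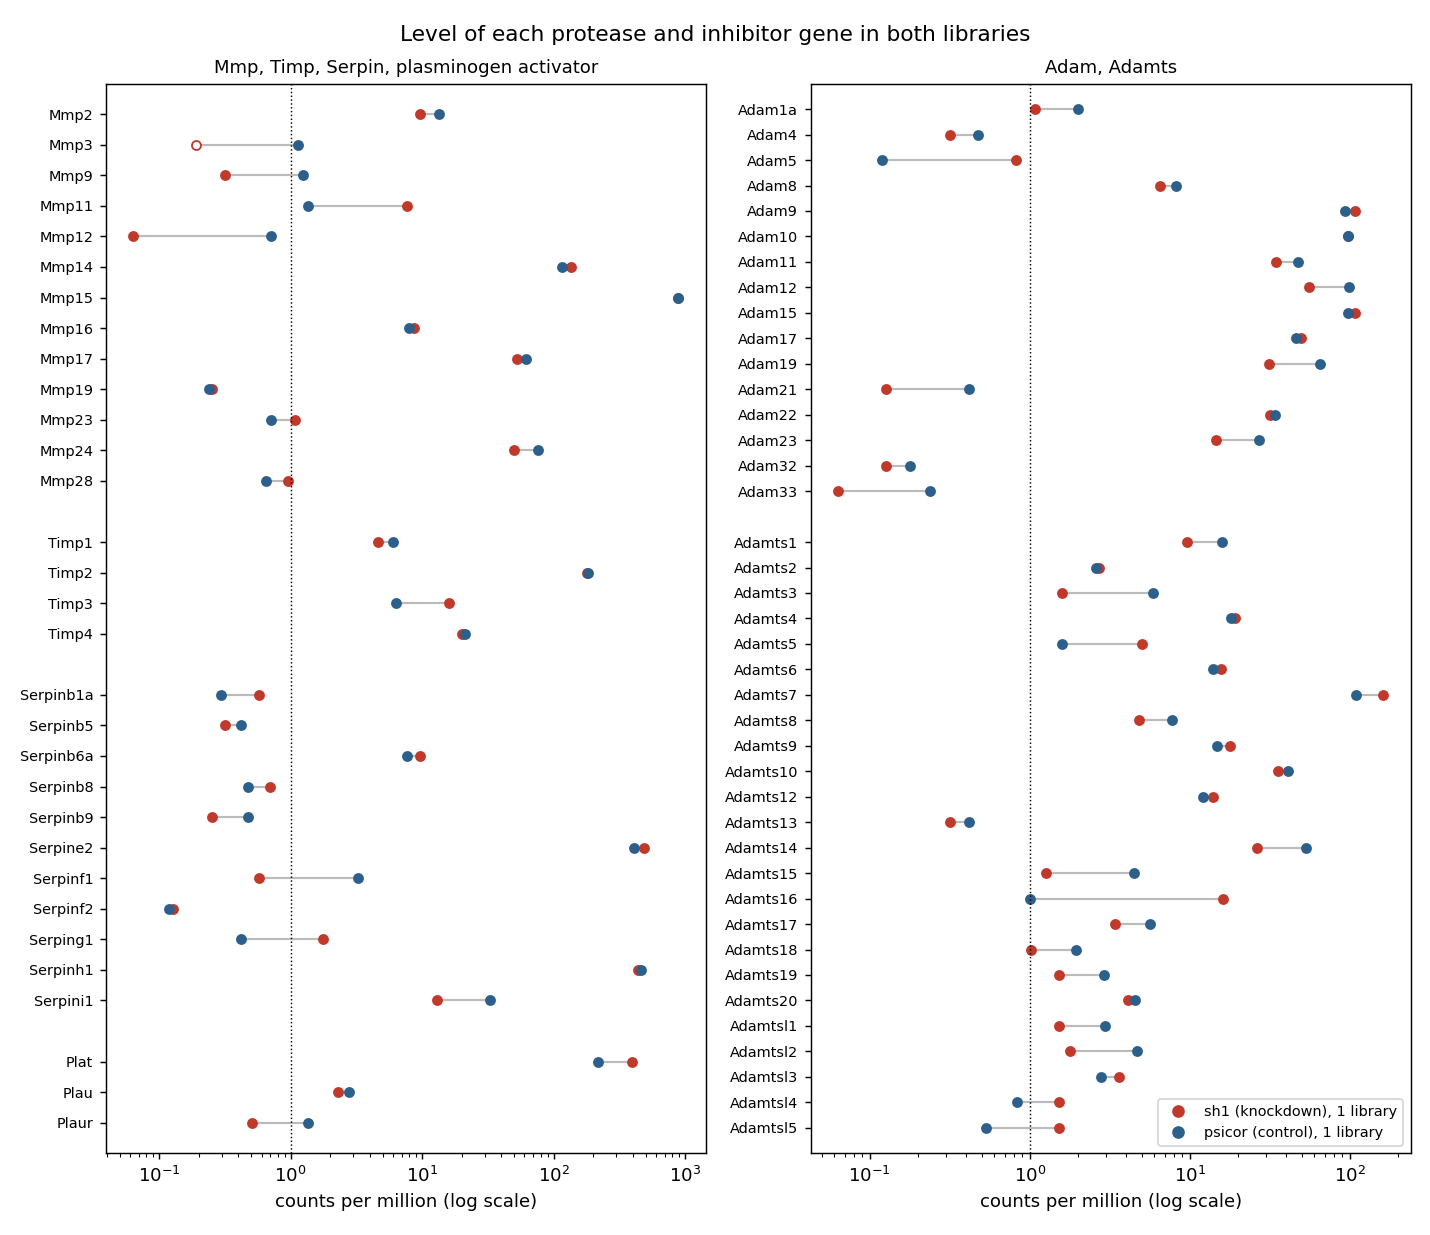
CPM (log scale) of 71 genes in the sh1 library (red) and the psicor library (blue), joined by a line; the open circle places Mmp3, with 0 counts in sh1, at the level of 3 counts, and the dotted line marks 1 CPM. Points of Mmp15, Timp2 and Adam10 lie on top of each other, and those of Adamts16 lie furthest apart among genes past the minimum.

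Matrix metalloproteinases were led by the membrane-type Mmp15, whose levels in the libraries differed by less than the counting error. Mmp15 (ENSMUSG00000031790, chromosome 8, 95352268 to 95375080, plus strand), a transmembrane enzyme that acts at the cell surface, stood at 877 CPM in sh1 and 888 CPM in psicor, a ratio of 0.988 (0.965 to 1.01). Scaled to exonic length it stood at 162 CPM per kb in sh1 and 164 in psicor, far above Mmp14, the second, at 22.6 and 19.5 CPM per kb in the same order. Mmp14, the main activator of the precursor of Mmp2, stood at 135 CPM in sh1 and 116 CPM in psicor, a ratio of 1.16 (1.09 to 1.23). All 5 membrane-type Mmps passed the minimum and lay within 2-fold, as did most protein-coding genes, of which 14.9% lay beyond it.

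Among the other membrane-type enzymes, Mmp24, which is known from neurons, had 49.97 CPM in sh1 and 76.1 CPM in psicor, a ratio of 0.657 (0.6003 to 0.718), the lowest of the 5. It shares 637 exonic bases with BC029722 on the opposite strand, which had 568 counts in sh1 and 380 in psicor, and strandedness is not stated. Mmp17, anchored by a lipid, had 52.8 and 62.0 CPM in sh1 and psicor, and Mmp16 had 8.69 and 7.89 CPM in the same order. The interval of Mmp16 held 1, and that of Mmp17 ran from 0.777 to 0.934.

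The Mmps outside the membrane-type group, secreted or of another kind, were low, and 2 of these 8 passed the minimum. Mmp11, a secreted enzyme cleaved to its active form inside the cell by furin, had 121 counts in sh1 and 23 in psicor. Its 7.67 and 1.36 CPM give a ratio of 5.62 (3.58 to 9.20), the largest among Mmps past the minimum, and its interval lies wholly above 2. Mmp11 (ENSMUSG00000000901, chromosome 10, 75923222 to 75936496, minus strand) shares 155 exonic bases with Chchd10 on the opposite strand, which had 7 and 15 counts in sh1 and psicor. The part of these shared bases in the value of Mmp11 was not tested. Mmp2, a gelatinase that cuts denatured collagen and type IV collagen, had 151 counts in sh1 and 226 in psicor, or 9.57 and 13.4 CPM, a ratio of 0.714 (0.577 to 0.881).

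The inducible Mmps stood near the limit of detection. Mmp3, stromelysin 1, had 0 counts in sh1 and 19 in psicor, at least 5.93-fold lower in sh1 against a floor of 3 counts in that library. The floor leaves out the counting error of psicor, and the exact interval allows a ratio of up to 0.229. Mmp9, the other gelatinase, had 5 counts in sh1 and 21 in psicor, a ratio of 0.254 (0.0750 to 0.693), and Mmp12, the elastase of macrophages, had 1 and 12, a ratio of 0.0890 (0.00208 to 0.602). All 3 were below the minimum in mean level and lower in sh1, beside the lower sums of macrophage and mesenchymal markers given above. The remaining members Mmp19, Mmp23 and Mmp28 had between 4 and 17 counts in sh1, and their intervals held 1.

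Of the tissue inhibitors of metalloproteinases, 1 of 4, Timp3, lay beyond 2-fold, against 14.9% of all protein-coding genes past the minimum. Timp2, the inhibitor that also takes part in the activation of Mmp2 by Mmp14, had 2832 counts in sh1 and 3086 in psicor. Its 180 and 183 CPM give a ratio of 0.981 (0.932 to 1.03), and it was the highest Timp per length in both libraries, at 46.1 CPM per kb in sh1 and 47.0 in psicor. Timp3, which binds the matrix and also inhibits Adam17 and several Adamts enzymes, had 252 counts in sh1 and 106 in psicor, or 15.98 and 6.29 CPM, a ratio of 2.54 (2.02 to 3.22). In CPM per kb it was the lowest Timp in both libraries, at 1.96 in sh1 and 0.772 in psicor.

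Timp3 (ENSMUSG00000020044, chromosome 10, 86300372 to 86349506, plus strand) lies in the synapsin gene Syn3 on the opposite strand and shares 1733 exonic bases with it. Syn3 had 51 counts in sh1 and 59 in psicor, and the part of the shared bases in the value of Timp3 was not tested. Timp4 had 319 counts in sh1 and 356 in psicor, a ratio of 0.958 (0.821 to 1.12), and shares 90 exonic bases with Syn2. Timp1, an inducible Timp, had 73 and 101 counts in sh1 and psicor, a ratio of 0.772 (0.564 to 1.05). Counted within each library, so that no scaling enters, there were 0.0890 Timp3 counts per Timp2 count in sh1 and 0.0344 in psicor, a quotient of 2.59 (2.04 to 3.30).

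The sheddases Adam10 and Adam17 had intervals that held a ratio of 1. Adam10, the main alpha-secretase and a sheddase of Notch, had 1539 counts in sh1 and 1643 in psicor, 97.6 and 97.5 CPM, a ratio of 1.001 (0.933 to 1.07). Adam17, which releases TNF and ligands of the EGF receptor, had 786 and 778 counts in sh1 and psicor, a ratio of 1.08 (0.976 to 1.19), and shares 311 exonic bases with Iah1 on the opposite strand. Per length, Adam9 led the family with 26.4 CPM per kb in sh1 and 22.7 in psicor, ahead of Adam10 with 19.9 and 19.8 and Adam15 with 17.6 and 15.9. Adam9 and Adam15, broadly expressed membrane proteases, had ratios of 1.16 (1.09 to 1.25) and 1.11 (1.04 to 1.19), and Adam8, known from leukocytes, had 103 counts in sh1 and 139 in psicor, a ratio of 0.792 (0.608 to 1.03).

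Adam12 and Adam19 were lower in sh1. Adam19 (ENSMUSG00000011256, chromosome 11, 46055992 to 46147343, plus strand), a protease that can shed neuregulin, had 495 counts in sh1 and 1102 in psicor, or 31.4 and 65.4 CPM, a ratio of 0.480 (0.431 to 0.534). It shares 587 and 480 exonic bases with a pair of antisense genes on the opposite strand. Adam12, known from muscle and mesenchyme, had 877 counts in sh1 and 1672 in psicor, a ratio of 0.560 (0.516 to 0.609), and so lay within 2-fold. The non-catalytic neural Adams were lower or close to their psicor level, beside the lower sum of neuronal markers. Adam23, a receptor of Lgi proteins at synapses, had 14.5 CPM in sh1 and 27.3 CPM in psicor, a ratio of 0.532 (0.452 to 0.625). Adam11 had a ratio of 0.720 (0.644 to 0.804) and Adam22, the receptor of Lgi1, 0.924 (0.818 to 1.04). In all, 11 of 16 Adams passed the minimum, with 0 at least 2-fold higher and 1 lower, against 7.02% and 7.9% of all protein-coding genes. The family median log2 fold was -0.33. With a minimum of 10 CPM that median was -0.11.

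The remaining Adams, several of them known from testis, were near the limit of detection. Adam5 had 13 counts in sh1 and 2 in psicor, a ratio of 6.95 with a wide interval (1.57 to 63.4), and Adam21, Adam32, Adam33 and Adam4 had at most 8 counts in either library. Adam1a, with 17 counts in sh1 and 34 in psicor, shares 4779 exonic bases with Gm42878 on its own strand, so its value is uncertain.

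**Figure D4:**
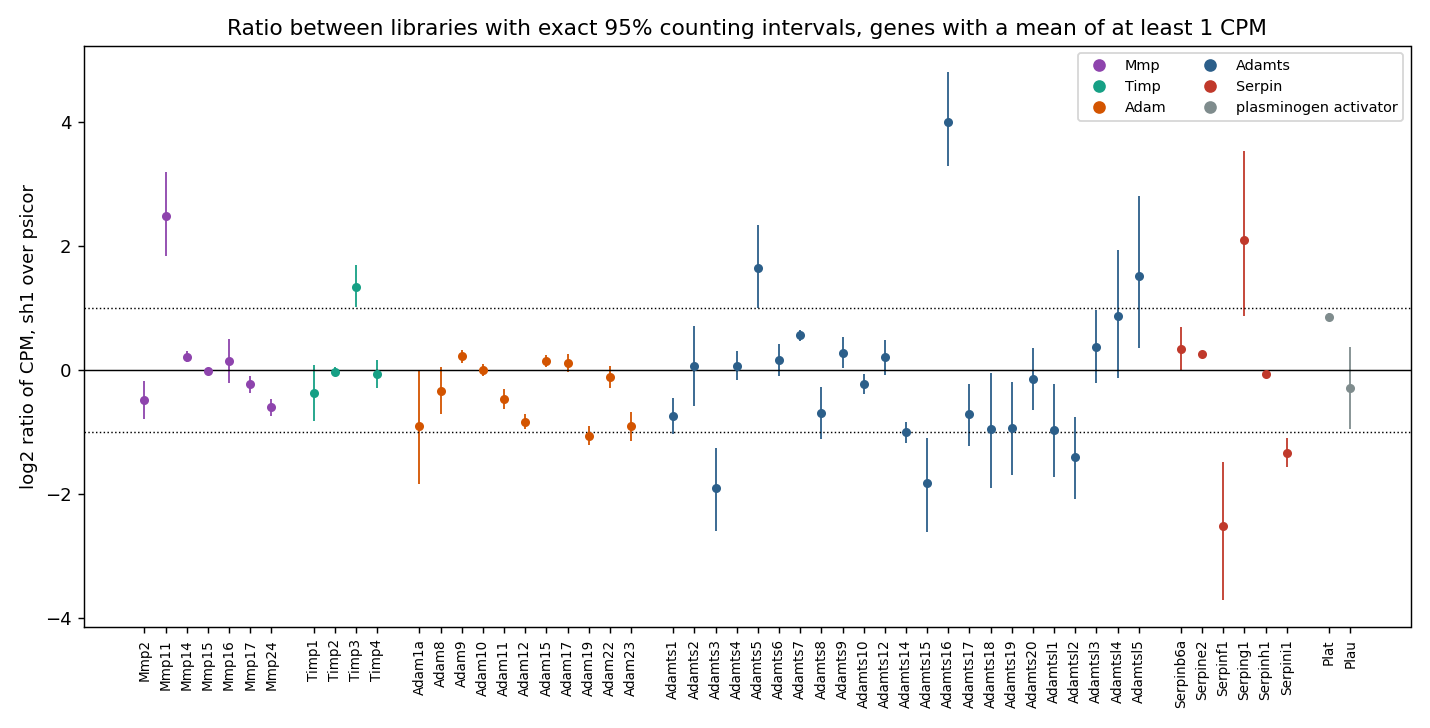
Log2 ratio of CPM, sh1 over psicor, with exact 95% counting intervals (bars) for 53 genes past the minimum, by family; dotted lines mark 2-fold. Adamts genes are spread most widely, from Adamts3 at a ratio of 0.267 to Adamts16 at 16.03, while Mmp15, Timp2, Adam10 and Serpinh1 lie next to 0.

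Adamts genes beyond 2-fold lay in both directions and were mostly genes of low level. At least 2-fold higher were 3 of the 23 that reached the minimum, with 4 lower and 16 within 2-fold, against 7.02% higher and 7.9% lower among all protein-coding genes. Of the 23, 15 stood at 1 to 10 CPM, and 6 of these 15 were beyond 2-fold, in a class where 32.8% of all protein-coding genes were. Adamts16 (ENSMUSG00000049538, chromosome 13, 70727802 to 70841811, minus strand), a secreted enzyme reported to cleave fibronectin, had 255 counts in sh1 and 17 in psicor. Its 16.2 and 1.01 CPM give a ratio of 16.03 (9.81 to 27.9), the largest of all members past the minimum. Adamts7, which cuts cartilage oligomeric matrix protein, had the highest level per length of the family, at 25.8 CPM per kb in sh1 and 17.5 in psicor. With 2556 counts in sh1 and 1856 in psicor its ratio was 1.47 (1.39 to 1.56), within 2-fold. Adamts10, which is associated with fibrillin, stood at 35.4 CPM in sh1 and 41.4 CPM in psicor, a ratio of 0.855 (0.764 to 0.958). Adamts6 and Adamts12 stood close to their psicor level, with ratios of 1.12 and 1.15 whose intervals held 1. Adamts17, Adamts18 and Adamts19 had ratios of 0.607, 0.518 and 0.523, within 2-fold, and Adamts13, which cuts von Willebrand factor, had 5 counts in sh1 and 7 in psicor.

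The Adamts enzymes that cut aggrecan or versican did not move together. Adamts5, a major aggrecanase in mice, had 79 counts in sh1 and 27 in psicor, or 5.01 and 1.60 CPM, a ratio of 3.13 (2.00 to 5.04). Adamts15 had 20 counts in sh1 and 76 in psicor, a ratio of 0.281 (0.163 to 0.465). Adamts1 had 151 and 270 counts in sh1 and psicor, a ratio of 0.598 (0.486 to 0.732), while Adamts4 had 301 and 307 counts, a ratio of 1.048 (0.891 to 1.23). Of the 7 enzymes of this group, 1 was at least 2-fold higher, 1 lower and 5 within 2-fold. Among all protein-coding genes past the minimum, 7.02% were higher and 7.9% lower. Adamts8, Adamts9 and Adamts20 were among those within 2-fold, with ratios of 0.620, 1.21 and 0.902. In length-scaled terms Adamts4 led the group in both libraries, with 3.97 CPM per kb in sh1 and 3.79 in psicor.

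The procollagen N-propeptidases summed to 30.6 CPM in sh1 and 61.5 CPM in psicor, a ratio of 0.498 (0.446 to 0.555). Most of this was Adamts14 (ENSMUSG00000059901, chromosome 10, 61197112 to 61273438, minus strand), with 415 counts in sh1 and 893 in psicor, or 26.3 and 53.0 CPM, a ratio of 0.497 (0.441 to 0.559). Adamts3, which processes procollagen II and the growth factor VEGF-C, had 25 counts in sh1 and 100 in psicor, a ratio of 0.267 (0.165 to 0.417). Adamts2, the propeptidase of skin collagens, had 43 and 44 counts in sh1 and psicor, a ratio of 1.04 (0.670 to 1.63). The lower values of Adamts14 and Adamts3 stand beside a lower sum of mesenchymal markers. Of the 7 such markers past the minimum, 6 were at least 2-fold lower and 1, Pdgfrb, was higher. Col1a1 had 11.5 CPM in sh1 and 34.7 CPM in psicor and Col3a1 2.60 and 12.1 CPM. Pdgfrb had 5.14 CPM in sh1 and 1.13 CPM in psicor, a ratio of 4.56 (2.74 to 7.95). The part of mesenchymal cells in the values of these propeptidases was not tested.

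Adamts-like proteins carry the ancillary domains of the family without a protease domain. Adamtsl2, which binds fibrillin and the latent TGF-beta complex, had 28 counts in sh1 and 79 in psicor, a ratio of 0.379 (0.237 to 0.590). Adamtsl5 had 24 counts in sh1 and 9 in psicor, a ratio of 2.85 (1.28 to 6.97), and was the member with the lowest mean level past the minimum, at 1.03 CPM. Adamtsl1 had 24 and 50 counts in sh1 and psicor, Adamtsl4 had 24 and 14, and Adamtsl3 had 57 and 47.

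The plasminogen activator system was represented almost wholly by Plat, which was higher in sh1. Plat (ENSMUSG00000031538, chromosome 8, 22757727 to 22782844, plus strand) had 6174 counts in sh1 and 3644 in psicor, or 391 and 216 CPM, a ratio of 1.81 (1.74 to 1.89), within 2-fold. At 62.7 CPM per kb in sh1 and 34.6 in psicor, it stood far above Plau, urokinase, at 0.964 and 1.18 CPM per kb. Plau had 36 counts in sh1 and 47 in psicor, a ratio of 0.818 (0.515 to 1.29). Plaur, the urokinase receptor, had 8 counts in sh1 and 23 in psicor, a ratio of 0.372 (0.144 to 0.861), and its mean level lay just under the minimum at 0.936 CPM. The gene of plasminogen itself, Plg, is on the list of activators and partners below, but it had no protein-coding row and so no value.

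Serpins that inhibit tPA took different directions. Serpini1 (ENSMUSG00000027834, chromosome 3, 75557547 to 75643495, plus strand), neuroserpin, the tPA inhibitor made by neurons, had 205 counts in sh1 and 553 in psicor, or 13 and 32.8 CPM, a ratio of 0.396 (0.336 to 0.466). Serpine2, protease nexin-1, a glial inhibitor of thrombin and plasminogen activators, had 7633 counts in sh1 and 6851 in psicor, or 484 and 407 CPM, a ratio of 1.19 (1.15 to 1.23). Lower Serpini1 stands beside the lower neuronal markers, and higher Plat beside the higher astrocyte, oligodendrocyte lineage and neural stem cell markers.

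Set against each other within a library, Plat counts per Serpini1 count came to 30.1 in sh1 and 6.59 in psicor, a quotient of 4.57 (3.87 to 5.42) that does not depend on the scaling. Plat counts per Serpine2 count came to 0.809 in sh1 and 0.532 in psicor, a quotient of 1.52 (1.44 to 1.60). On the length-scaled values Plat stood at 1.07 times Serpine2 in sh1 and at 0.706 times Serpine2 in psicor. The order of the pair thus differed between the libraries on this scale only, since in counts Plat lay below Serpine2 in both. The length is that of all annotated exons of a gene, and the lengths of the expressed transcripts are not known. These pairs, part of 11 computed, were chosen with the values known.

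**Figure D5:**
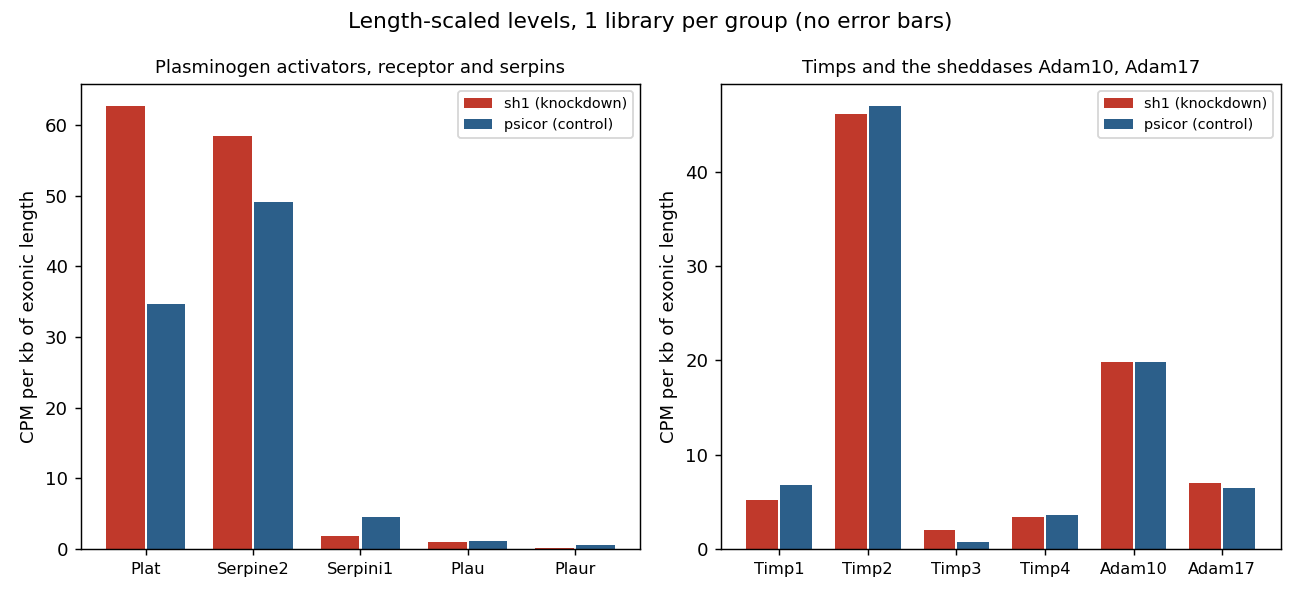
Length-scaled level (CPM per kb of exonic length) in sh1 (red) and psicor (blue), 1 library each, of the plasminogen activators, their receptor and serpins (left) and of the Timps with Adam10 and Adam17 (right). On this scale, which takes all annotated exons as the length, Plat exceeds Serpine2 in sh1 only, at 62.7 against 58.4. In counts Plat lies below Serpine2 in both libraries. Timp2 is level in both libraries.

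Among the remaining serpins, Serpinh1 (Hsp47) was the highest per length of all members, at 178 CPM per kb in sh1 and 188 in psicor, with a ratio of 0.951 (0.921 to 0.983). Serpinf1 (ENSMUSG00000000753, chromosome 11, 75409769 to 75422701, minus strand), pigment epithelium-derived factor, a secreted serpin with no inhibitory activity, had 9 counts in sh1 and 55 in psicor, a ratio of 0.175 (0.0760 to 0.357), the lowest among members past the minimum. Serping1 (ENSMUSG00000023224, chromosome 2, 84765387 to 84775444, minus strand), the C1 inhibitor of the complement system, had 28 counts in sh1 and 7 in psicor, a ratio of 4.27 (1.82 to 11.6). Both rest on few counts in 1 of the libraries. Serpinb6a was the 1 clade B serpin past the minimum, with 153 and 129 counts in sh1 and psicor, a ratio of 1.27 (0.996 to 1.61), and shares exonic bases with Nqo2 and Ripk1. The other 4 clade B serpins had at most 11 counts in either library.

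Neighbouring family members differed in whether they followed each other. Adamts1 and Adamts5 lie 55057 bases apart on chromosome 16 and had log2 folds of -0.74 and 1.63. Adamts15 and Adamts8, 20110 bases apart on chromosome 9, had -1.80 and -0.69, and Mmp12 and Mmp3, 76323 bases apart in the Mmp cluster of the same chromosome, were both lower in sh1 at few counts. Serpinf1 and Serpinf2 are 9031 bases apart on chromosome 11, and Serpinf2 had 2 counts in each library.

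Genes on a list of activators, partners and clearance receptors of extracellular proteases were mostly above their psicor level in sh1. Of 21 genes of this list, 19 had a row and 17 passed the minimum; 16 of these had a ratio above 1, but 1 was at least 2-fold higher, 1 at least 2-fold lower and 15 within 2-fold. Among all 12721 protein-coding genes past the minimum, 6218 had a ratio above 1, 7.02% were at least 2-fold higher and 7.9% lower. The median log2 fold over the list came to 0.49, against -0.01 for all protein-coding genes. Rhbdf2 (iRhom2), which matures Adam17, had 7.36 CPM in sh1 and 2.61 CPM in psicor, a ratio of 2.82 (1.98 to 4.08). Lrp1, the receptor that takes up protease and inhibitor complexes, had 641 CPM in sh1 and 332 CPM in psicor, a ratio of 1.93 (1.87 to 2.00). Pcsk5, a proprotein convertase, had a ratio of 1.88 (1.59 to 2.23). Anxa2, a cell-surface partner of tPA and plasminogen, had 27.8 CPM in sh1 and 57.2 CPM in psicor, a ratio of 0.486 (0.433 to 0.544).

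Other extracellular proteases split in both directions. Of 21 genes, 18 had a row and 11 passed the minimum, with 4 at least 2-fold higher, 3 lower and a median log2 fold of 0.80, which was the same with Mme placed at its bound. Over all 18 with a row the median was 0.34. The background among protein-coding genes was 7.02% higher and 7.9% lower, or 14.5% and 18.3% at 1 to 10 CPM. Htra1 and Htra3, secreted serine proteases, had 67.5 and 7.17 CPM in sh1 against 17.8 and 0.712 CPM in psicor, ratios of 3.79 (3.33 to 4.32) and 10.1 (5.54 to 20.1). Prss23, a secreted serine protease, had a ratio of 3.13 (2.83 to 3.46). Mme, neprilysin, which degrades neuropeptides, had 0 counts in sh1 and 61 in psicor, at least 19.0-fold lower in sh1 against the floor of 3 counts, and its exact interval allows a ratio of up to 0.0666.

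Inhibitors outside the Timp and serpin families also split in both directions. Of 20 genes, 16 had a row and 12 passed the minimum, with 4 at least 2-fold higher, 4 lower and 4 within 2-fold, against the same background of 7.02% and 7.9% of protein-coding genes, or 14.5% and 18.3% at 1 to 10 CPM. The median log2 fold was 0.09 over these 12 and -0.27 over all 16 with a row. Cst3, cystatin C, the secreted inhibitor of cysteine cathepsins, had 1305 CPM in sh1 and 269 CPM in psicor, a ratio of 4.84 (4.69 to 5.004). Itih3 and Slpi, low in psicor with 15 and 5 counts, had 158 and 55 counts in sh1, ratios of 11.3 (6.62 to 20.6) and 11.8 (4.74 to 37.6). Spock3, a testican of neural tissue, had 14 counts in sh1 and 217 in psicor, a ratio of 0.0689 (0.0371 to 0.118). These lists are descriptions of 2 libraries and were not tested against other genes.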

How the data were processed

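The authors deposited 1 table with raw counts per gene for both libraries, per the file headers. Tools named without role or order in the submitters' processing notes are HTSeq 0.6.0, TopHat2 2.0.12 and Bowtie2 2.2.3, with the build mm9; strandedness is not given in the sources used here. The authors also deposited CPM values, their ratio as a fold change, its log2 and p-values from a test that the file headers do not name. All 72 member gene IDs were found in GENCODE M21 (GRCm38), where all positions overlap the table's and 69 are identical in start and end; exonic lengths and overlaps were taken from it.

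From the counts, TMM factors (edgeR 4.0.16) were computed over all 19595 genes. CPM and ratios are scaled counts; log2 folds add a prior count of 0.5. Intervals are Clopper-Pearson 95% intervals of the conditional binomial (scipy 1.17.1) and, like the floor of 3 counts (0.190 CPM in sh1, 0.178 CPM in psicor), cover counting error only, since PCR copies are not independent molecules. With 1 library per group no test was made, and genes are counted by a 2-fold rule. On simulated data of 19595 genes for sh1 over psicor, 100% of 3-fold genes and 1% of 1.5-fold genes passed 2-fold. These genes were drawn from all levels past the minimum. The simulated counts held counting error only, so these shares leave out the unknown spread between cultures. Single values are given for members beyond 2-fold, the 3 with the highest CPM in each family, the genes nearest to the limit and a fixed list of well-known members; other members are named where a family or gene position is described, chosen after their values were seen. Up to 4 genes of each further list are named. The members and lists were chosen with earlier results of these data known. Alternatives were DESeq2 (1.42.0) size factors, total counts, the authors' CPM, other minimums, a prior count of 5 and 1.5-fold. Values of some genes are not reported here and not drawn, though the counts of genes include them.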

Additional observations from a re-analysis of the deposited data

How the results depend on the processing

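The counts of members beyond 2-fold depended on the expression minimum and the threshold. With a minimum of 10 CPM, 1 member was at least 2-fold higher and 3 lower, of 29 past it. Without a minimum, 13 of 72 were lower, and at 1.5-fold 17 of 54 were and 8 were higher. The shares of all genes were not recomputed under these alternatives, so these counts have no background beside them. The scaling moved the lower count to 9 with total counts and with the authors' CPM, against 7 with TMM. The median log2 fold of Mmp genes became -0.23 with a minimum of 10 CPM, that of Adam genes -0.11 against -0.33, and that of Adamts genes 0.11 against -0.15. That of the plasminogen activator genes, which is 0.29 over 2 genes, became 0.86 with that minimum, where Plat alone remained, and -0.28 without a minimum. The Serpin median, -0.07 over 7 genes, became -0.12 with total counts and with the authors' CPM, and 0.01 without a minimum. Changes with the minimum or the threshold follow from how many genes are counted. The median log2 fold of all genes was -0.0564 with total counts and -0.00416 with TMM. Of 148 recomputed log2 folds of 37 named genes, 6 left their counting interval (Mmp15, Serpine2 and Serpinh1, under total counts and the authors' CPM) and 3 changed sign, all of Adam10, which lies next to 0. Leaving out the 17 members that share exonic bases with another gene, an alternative added after the data were seen, left 4 higher and 6 lower of 40 past the minimum. With 1 library per group no replicate could be left out. No paired analysis was possible because each group has 1 library. At the floor of 3 counts, members with few counts, such as Mmp3, Mmp9, Mmp12, Serpinf1 and Serping1, have wide intervals, and differences among genes under 1 CPM were mostly not detectable at this depth.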

Other observations

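Symbols of the same families but of another biotype were left out of the set. Mmp1a, listed as a polymorphic pseudogene, had 0 counts in sh1 and 5 in psicor. Serpina3h, listed as a transcribed pseudogene, had 5 counts in sh1 and 3 in psicor.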
